A study of Arabidopsis thaliana with 12 samples.

Results

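The JAZ genes of Arabidopsis encode repressors of jasmonate signalling, and 10 of them, *JAZ1* to *JAZ10*, were followed here out of 33602 genes in a gene count table of seedlings treated with abscisic acid (ABA). The members were chosen by name, as the rows of the gene identifiers AT1G19180 (*JAZ1*), AT1G74950 (*JAZ2*), AT3G17860 (*JAZ3*), AT1G48500 (*JAZ4*), AT1G17380 (*JAZ5*), AT1G72450 (*JAZ6*), AT2G34600 (*JAZ7*), AT1G30135 (*JAZ8*), AT1G70700 (*JAZ9*) and AT5G13220 (*JAZ10*). RNA was sequenced from whole 7-day-old seedlings of Col-0 wild type (WT) and of *nup85*, with 3 libraries in each of the 4 groups. The mutant is the T-DNA insertion line *nup85-1* in the Col-0 background, in which the gene of the nuclear pore protein NUP85 is disrupted, and it stands for 1 insertion allele. Seedlings of both genotypes grew on half-strength MS agar with sucrose and then spent 3 h in liquid half-strength MS medium, which held 50 μM ABA in the ABA groups and none in the mock groups. The study compared the genotypes under both conditions and the ABA response within each genotype.

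Jasmonates are lipid-derived hormones of the wound and defence responses. At rest, JAZ proteins bind MYC transcription factors and recruit the adaptor NINJA and the corepressor TOPLESS (TPL), which keeps the target genes off. The active hormone, jasmonoyl-isoleucine, joins a JAZ protein to the F-box receptor COI1, the JAZ protein is degraded and MYC2 and its relatives are freed. Most *JAZ* genes are themselves MYC targets, so their transcripts are widely used as a readout of jasmonate signalling and refill the repressor pool.

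All 12 libraries held between 6616931 and 29798437 counted reads, and levels below are TMM-normalized CPM, that is, counts scaled to a common effective library size. The defining shoot markers (3 of 3, summed level 6453 to 27270 CPM) and root markers (5 of 5, 23.2 to 50.7 CPM) were counted in every library, so shoots and roots were both present. The shoot sum was lower in every ABA library (6453 to 17690 CPM) than in every mock library (20020 to 27270 CPM), and its part in the ABA results was not tested. The light-harvesting gene *LHCB2.1* of that list had 2145 to 3964 CPM in mock and 79.6 to 1015 CPM in ABA libraries. *LHCB1.3* had 11110 to 15770 CPM in mock and 3115 to 10110 CPM in ABA libraries. *RBCS1A* overlapped, with 6289 to 10900 CPM in mock and 3226 to 10990 CPM in ABA libraries. Of the 3 shoot markers, 1 was called lower after ABA in each genotype. Flower and seed markers summed to at most 1.5 CPM in 10 libraries, and to 8.77 and 46.0 CPM in replicate 3 of WT mock and *nup85* mock. *NUP85* (AT4G32910) had 28.7 to 41.7 CPM in replicates 1 and 2 of WT and 1.72 to 3.52 CPM in replicates 1 and 2 of *nup85*. In replicate 3 it had 16.0 CPM in WT mock, 29.4 CPM in WT ABA, 27.5 CPM in *nup85* mock and 17 CPM in *nup85* ABA, so the library labelled *nup85* mock replicate 3 went against its label. The library labelled *nup85* ABA replicate 3 was intermediate, so its label is also open to doubt. It was above both other *nup85* ABA libraries (3.21 and 1.99 CPM) and above WT mock replicate 3. However, it was below every WT ABA library (29.4 to 41.7 CPM). The genotypes below are therefore those of the labels, and results are given from all 3 replicates and from replicates 1 and 2. The labels do not say that replicates came from separate cultures, so p-values measure the spread between these libraries, which may be technical.

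Under mock conditions the family was led by *JAZ9*, *JAZ6*, *JAZ2* and *JAZ1*, in that order, when levels were divided by exon length so that genes could be compared. In WT mock these 4 genes had means of 23.2, 21.2, 17.1 and 10.6 CPM per kb. *JAZ9* and *JAZ6* overlapped across the 3 libraries, and *JAZ6* was above *JAZ2*, *JAZ2* above *JAZ1* and *JAZ1* above *JAZ3* without overlap. *JAZ3* followed with 4.84 CPM per kb and *JAZ4* with 1.94 CPM per kb. The last 4, *JAZ10*, *JAZ5*, *JAZ7* and *JAZ8*, had means between 0.316 and 1.15 CPM per kb and each overlapped its neighbour. In *nup85* mock the order of the 10 genes was the same.

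After ABA the order changed, and *JAZ1* led in both genotypes. Its mean level was 131 CPM per kb in WT and 151 CPM per kb in *nup85*, and in every ABA library it was above *JAZ9*, which came second with 59.5 and 107 CPM per kb. *JAZ1* made up 10.6% to 16.5% of the summed per-length level of the family in the 6 mock libraries and 33.5% to 48.1% in the 6 ABA libraries. *JAZ4* was last in both genotypes, with 0.649 and 0.691 CPM per kb, whereas it was sixth under mock. The summed level was 72.8, 85.4 and 86.9 CPM per kb in WT mock and 209, 154 and 559 CPM per kb in WT ABA, in replicates 1 to 3. It was 87.2, 104 and 150 CPM per kb in *nup85* mock and 184, 217 and 798 CPM per kb in *nup85* ABA. The ABA libraries were above the mock libraries in both genotypes, and replicate 3 was the highest of each ABA group.

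**Figure D1:**
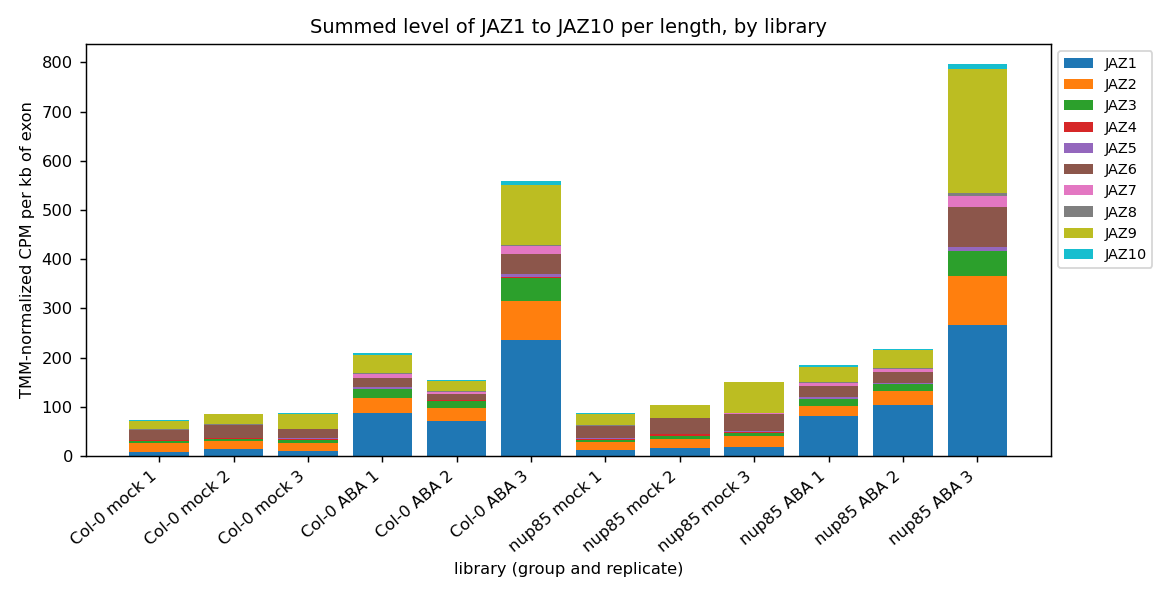
Summed level of the 10 genes in each library, as TMM-normalized CPM per kb of exon, with 1 coloured segment for each gene. *JAZ1* takes the largest segment in all 6 ABA libraries, and the ABA libraries of replicate 3 reach 559 (WT) and 798 (*nup85*) against at most 217 in the other ABA libraries.

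ABA raised 6 of the 9 *JAZ* genes that could be tested in WT and lowered 1. *JAZ1*, *JAZ2*, *JAZ3*, *JAZ5*, *JAZ7* and *JAZ10* rose, *JAZ4* fell, and *JAZ6* and *JAZ9* did not pass the test. Over all 20062 genes tested, 16.5% were called higher and 14.9% lower at an adjusted p under 0.05 (edgeR's quasi-likelihood test with Benjamini-Hochberg adjustment). The median log2 fold change of the 9 genes was 1.97, against -0.01 over all genes. From replicates 1 and 2 it was 1.26, against -0.01 over all genes. When a change of at least 4-fold was also asked for, 4 of the 9 remained, all higher (*JAZ1*, *JAZ3*, *JAZ5* and *JAZ7*), and 4.06% of all genes passed in that direction. Between ABA and mock the 3 libraries of each group did not overlap for 6 genes that were higher and 1 that was lower, out of all 10, where 26% and 23.8% of all genes showed this.

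In *nup85*, ABA raised 5 of 10 tested *JAZ* genes and lowered 1. *JAZ1*, *JAZ3*, *JAZ5*, *JAZ7* and *JAZ8* rose and *JAZ4* fell, while *JAZ2*, *JAZ6*, *JAZ9* and *JAZ10* did not pass. Of 20001 genes tested, 15.4% were called higher and 13.8% lower. DESeq2, the tool of the study, also called *JAZ2* (DESeq2 adjusted p = 0.0496) and *JAZ10* (DESeq2 adjusted p = 0.0107), so that 7 were higher and 1 lower, against 17.5% and 16.3% of all genes. Over the alternatives in *nup85*, *JAZ2* was called in 2 of 15 (adjusted p from 0.0197, with a replicate block on replicates 1 and 2, to 0.261) and *JAZ10* in 3 of 15 (adjusted p from 0.0107 to 0.292). The median log2 fold change was 2.01 for the 10 genes and 0.01 for all genes. From replicates 1 and 2 it was 1.01 for the 10 genes and 0.01 for all genes. With the 4-fold limit, 4 genes remained (*JAZ1*, *JAZ3*, *JAZ7* and *JAZ8*), against 3.87% of all genes in that direction. ABA and mock libraries did not overlap for 6 genes that were higher and 1 that was lower, where 25.2% and 23.3% of all genes showed this.

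*JAZ1* and *JAZ2* are close relatives and encode canonical JAZ proteins with a degron that COI1 and the hormone bind. *JAZ1* had 15.2, 25.4 and 16.6 CPM in WT mock (19.1 ± 5.56, SD, n = 3) and 158, 128 and 425 CPM in WT ABA. In *nup85* it had 20.9, 29.3 and 31.4 CPM under mock and 148, 188 and 482 CPM after ABA. Every ABA library was above every mock library, and replicate 3 was the highest ABA library of both genotypes. The log2 fold change of *JAZ1* was 3.63 in WT (SE 0.53, n = 3 and 3, edgeR adjusted p = 0.00405) and 3.31 in *nup85* (SE 0.50, n = 3 and 3, edgeR adjusted p = 0.00432). It was the 215th highest of 20062 genes in WT and the 256th of 20001 in *nup85*. The call held under all 15 alternatives in each genotype, with an adjusted p of at most 0.0266, and replicates 1 and 2 gave 2.83 and 2.73.

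*JAZ2*, which acts in guard cells in the defence of stomata, had 23.9, 22.6 and 24.1 CPM in WT mock and 41.9, 35.9 and 110 CPM in WT ABA. In *nup85* it had 23.2, 25.5 and 30.3 CPM under mock and 28.0, 39.0 and 135 CPM after ABA. The groups did not overlap in WT, and in *nup85* ABA replicate 1 lay inside the mock range. The log2 fold change was 1.40 in WT (SE 0.43, n = 3 and 3, edgeR adjusted p = 0.0451) and 1.34 in *nup85* (SE 0.57, n = 3 and 3, edgeR adjusted p = 0.119). Replicates 1 and 2 gave 0.74 and 0.44, and the call held under 8 of 15 alternatives in WT.

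*JAZ3* and *JAZ4*, a closely related pair, changed in opposite directions. *JAZ3*, the gene of the dominant jasmonate-insensitive mutant *jai3-1*, had 12.6, 10.2 and 17.1 CPM in WT mock and 50.1, 41.8 and 128 CPM in WT ABA. In *nup85* it had 10.6, 16.8 and 18.2 CPM under mock and 36.3, 36.1 and 142 CPM after ABA. All ABA libraries were above all mock libraries, again with replicate 3 on top. The log2 fold change of *JAZ3* was 2.44 in WT (SE 0.47, n = 3 and 3, edgeR adjusted p = 0.0101) and 2.22 in *nup85* (SE 0.59, n = 3 and 3, edgeR adjusted p = 0.0300), and replicates 1 and 2 gave 1.99 and 1.40.

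*JAZ4*, which also binds the cold-response regulator ICE1, was the one member called lower. It had 4.21, 4.04 and 2.74 CPM in WT mock and 1.18, 1.13 and 1.37 CPM in WT ABA, and 5.61, 6.46 and 3.01 CPM in *nup85* mock and 1.12, 1.86 and 0.933 CPM in *nup85* ABA. Every ABA library was below every mock library. Replicate 3 was the lowest mock library of both genotypes, and among the ABA libraries the highest in WT and the lowest in *nup85*. The log2 fold change was -1.57 in WT (SE 0.29, n = 3 and 3, edgeR adjusted p = 0.00850) and -1.95 in *nup85* (SE 0.41, n = 3 and 3, edgeR adjusted p = 0.0140). Replicates 1 and 2 gave -1.83 and -2.01, and over the alternatives the value lay between -1.85 and -1.45 in WT and between -2.29 and -1.73 in *nup85*. In WT the call held under all 15, and in *nup85* under 13 of 15.

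*JAZ9*, which also binds DELLA proteins of the gibberellin pathway and is the third gene of this branch, was high in all groups. It had 33.3, 37.3 and 58.2 CPM in WT mock, 68.2, 38.6 and 224 CPM in WT ABA, 44.2, 48.3 and 116 CPM in *nup85* mock and 59.8, 68.1 and 467 CPM in *nup85* ABA. Replicate 3 was the highest library of all 4 groups, and ABA and mock overlapped in both genotypes. The log2 fold change was 1.35 in WT (SE 0.63, 95% interval -0.14 to 2.83, edgeR adjusted p = 0.142) and 1.5 in *nup85* (SE 0.85, 95% interval -0.50 to 3.51, edgeR adjusted p = 0.223), so neither a change of 0 nor one of more than 4-fold lay outside the intervals. The value from replicates 1 and 2 was 0.60 in WT and 0.44 in *nup85*, where the latter passed the test (edgeR adjusted p = 0.0130, 0.00628 to 0.825 over the alternatives).

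*JAZ5* and *JAZ6*, another closely related pair, were a low and a high gene with unlike responses. *JAZ5* had 1.05, 1.35 and 2.53 CPM in WT mock and 6.31, 2.70 and 14.4 CPM in WT ABA, and 1.33, 1.58 and 4.23 CPM in *nup85* mock and 6.84, 5.41 and 15.9 CPM in *nup85* ABA. The groups did not overlap, although WT ABA replicate 2 was only just above WT mock replicate 3. *JAZ5* rose by 2.21 on the log2 scale in WT (SE 0.66, n = 3 and 3, edgeR adjusted p = 0.0420) and by 1.92 in *nup85* (SE 0.58, n = 3 and 3, edgeR adjusted p = 0.0453). The call held under 11 of 15 alternatives in each genotype, and replicates 1 and 2 gave 1.97 and 2.05.

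*JAZ6*, which has been tied to the daily rhythm of defence against the fungus Botrytis, changed direction with the replicates used. It had 42.0, 55.1 and 38.4 CPM in WT mock and 40.2, 26.3 and 85.7 CPM in WT ABA. In *nup85* it had 53.8, 67.7 and 75.8 CPM under mock and 49.6, 47.2 and 174 CPM after ABA. In replicates 1 and 2 the ABA libraries were below the mock libraries of the same genotype, and in replicate 3 the ABA library was above all of them. All 3 replicates gave a log2 fold change of 0.16 in WT (SE 0.42, 95% interval -0.83 to 1.15, edgeR adjusted p = 0.792) and 0.44 in *nup85* (SE 0.51, 95% interval -0.77 to 1.66, edgeR adjusted p = 0.551). Replicates 1 and 2 gave -0.54 (edgeR adjusted p = 0.106) and -0.35 (edgeR adjusted p = 0.0558), and the adjusted p over the alternatives ranged from 0.104 to 0.992 in WT and from 0.0381 to 0.753 in *nup85*.

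*JAZ7* and *JAZ8* encode short relatives with a repression motif that recruits TPL directly, and JAZ8 lacks the canonical degron and resists jasmonate-triggered degradation. *JAZ7* had 0.613, 0.599 and 0.421 CPM in WT mock and 6.06, 3.53 and 13.9 CPM in WT ABA. In *nup85* mock it was counted with 1, 1 and 17 reads (0.0951, 0.132 and 1.22 CPM), and in *nup85* ABA it had 4.54, 4.6 and 18.6 CPM. Every ABA library was above every mock library. *JAZ7* had the largest fitted rise of the family in both genotypes, with a log2 fold change of 3.86 in WT (SE 0.61, n = 3 and 3, edgeR adjusted p = 0.00530), the 179th highest of 20062 genes, and 4.05 in *nup85* (SE 0.95, n = 3 and 3, edgeR adjusted p = 0.0196), the 132nd of 20001. Replicates 1 and 2 gave 2.98 in WT. In *nup85* the 2 mock reads of replicates 1 and 2 against 139 reads after ABA gave a ratio of 41.4 (95% exact interval 11.2 to 345, counting error only).

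*JAZ8* was the lowest member under mock. It was counted with 2, 3 and 2 reads in WT mock and 63, 4 and 65 reads in WT ABA, and with 4, 0 and 1 reads in *nup85* mock and 17, 16 and 100 reads in *nup85* ABA. WT ABA replicate 2 stayed inside the mock range at 0.3 CPM, and the *nup85* groups did not overlap. In WT the gene was removed by the filter on low counts. Fitted without that filter it had a log2 fold change of 2.88 (SE 0.86, n = 3 and 3, edgeR adjusted p = 0.0454 over 25757 genes), and 2.33 in replicates 1 and 2 (edgeR adjusted p = 0.063). When any WT mock library was left out, it passed the filter and was not called (edgeR adjusted p from 0.0746 to 0.143). Without WT ABA replicate 2 it passed and was called (edgeR adjusted p = 0.0152). In *nup85* it passed the filter and rose by 3.81 on the log2 scale (SE 1.02, n = 3 and 3, edgeR adjusted p = 0.0307), and by 2.23 in replicates 1 and 2 (edgeR adjusted p = 0.0324, 0.00154 to 0.117 over the alternatives).

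*JAZ10*, whose splice variants include proteins that escape degradation, had 2.45, 2.54 and 2.67 CPM in WT mock and 7.96, 3.75 and 18.6 CPM in WT ABA. In *nup85* it had 3.61, 2.38 and 2.30 CPM under mock and 5.93, 3.73 and 26.2 CPM after ABA. The groups did not overlap in either genotype, though *nup85* ABA replicate 2 was close to *nup85* mock replicate 1. The log2 fold change was 1.97 in WT (SE 0.56, n = 3 and 3, edgeR adjusted p = 0.0371) and 2.11 in *nup85* (SE 0.75, 95% interval 0.34 to 3.87, edgeR adjusted p = 0.0745). From replicates 1 and 2 it was 1.26 and 0.63, and the call held under 10 of 15 alternatives in WT. The gene overlaps the long non-coding RNA gene AT5G02045 on the other strand by 71 bases, and since the strandedness of the counting is not given in the sources used here, reads of both cannot be told apart there.

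**Figure D2:**
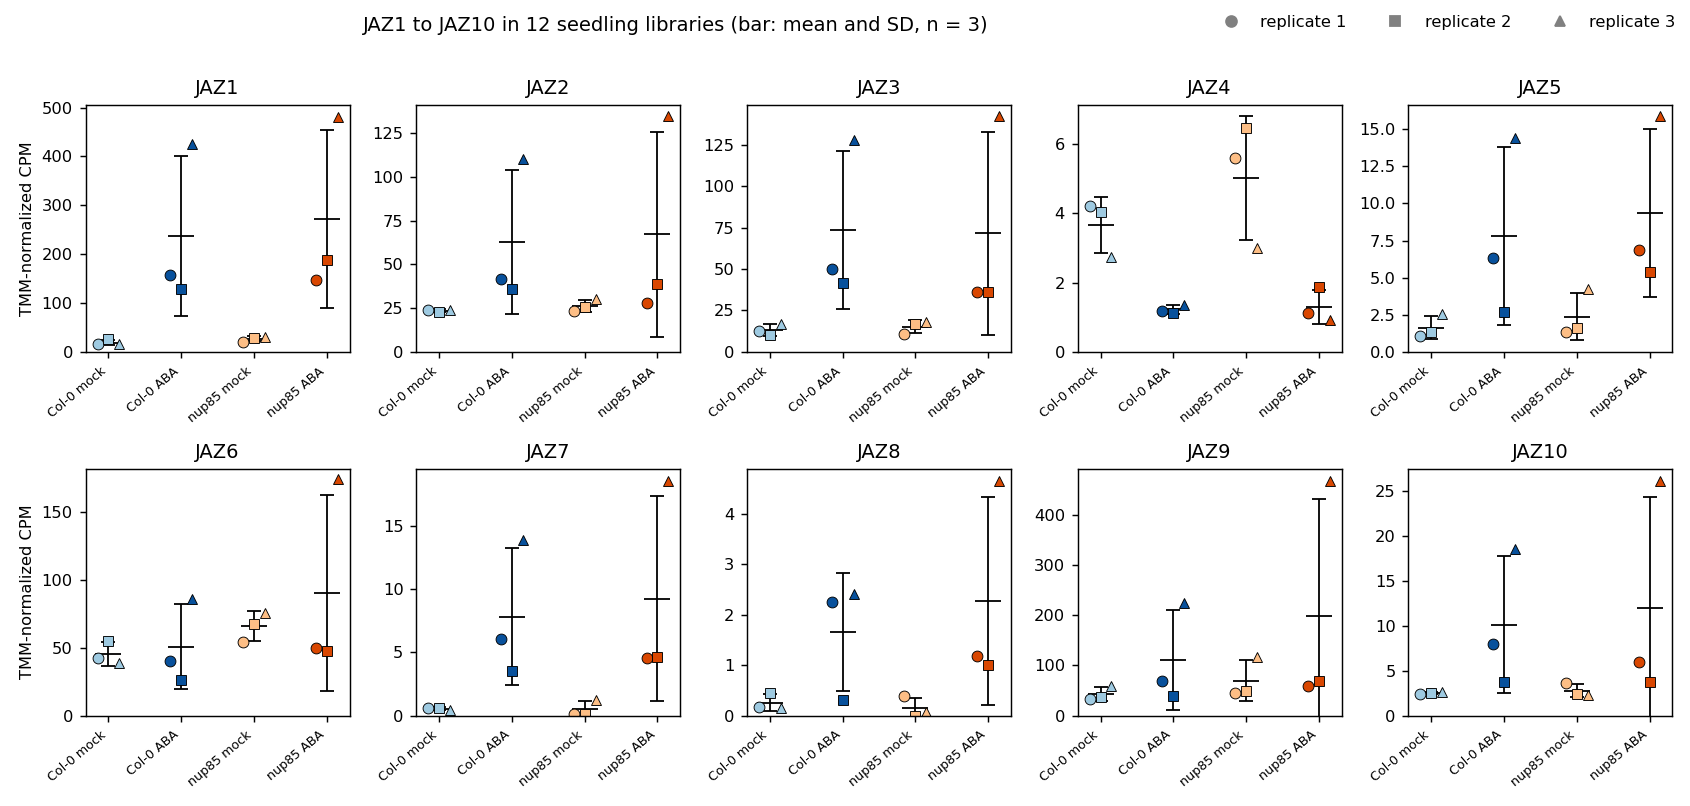
TMM-normalized CPM of each gene in the 12 libraries, on linear axes that differ between panels, with symbols for the replicate number and bars for the mean and SD of 3 libraries (cut at 0). *JAZ4* is the one gene whose ABA libraries all lie below its mock libraries, and the triangles of replicate 3 are the highest ABA points in all panels but that of *JAZ4* in *nup85*.

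Replicate 3 carried the largest ABA levels of the family. In WT ABA it was the highest library for all 10 genes, at 1.19 to 4.20 times the mean of replicates 1 and 2 (median 2.87). In *nup85* ABA it was the highest for 9 of 10, at 0.626 to 7.29 times that mean (median 3.98). Under mock it was the highest for 5 of 10 genes in WT (median 0.928 times) and 7 of 10 in *nup85* (median 1.25 times). The share of all genes with replicate 3 highest was not counted, so these counts do not show a trait particular to the family. What sets replicate 3 apart was not tested.

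The calls depended on single libraries for some members. In WT, *JAZ2*, *JAZ5* and *JAZ10* lost their calls without mock replicate 1, mock replicate 2 or ABA replicate 1, which left 4 members called. Calls over all genes fell in these fits too, from 6299 to 3522, 4886 and 3484 in that order. *JAZ2* and *JAZ10* also lost theirs without mock replicate 3, and *JAZ5* without ABA replicate 3. In *nup85*, *JAZ3*, *JAZ4*, *JAZ5* and *JAZ7* lost theirs without mock replicate 1, and *JAZ8* as well without mock replicate 2, which left 2 and 1 members called. Over all genes, the *nup85* calls fell from 5838 to 3182 and 3243 in these fits. Without mock replicate 3, *JAZ3* and *JAZ8* lost their calls, and without ABA replicate 1 or 3 *JAZ5* did, whereas *JAZ10* gained one without ABA replicate 2. With replicates 1 and 2, 6 members were called higher and 1 lower in WT, and 6 higher and 1 lower in *nup85*, where over all genes 24% and 23.2% were called higher and lower in WT and 25.6% and 25.9% in *nup85*.

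**Figure D3:**
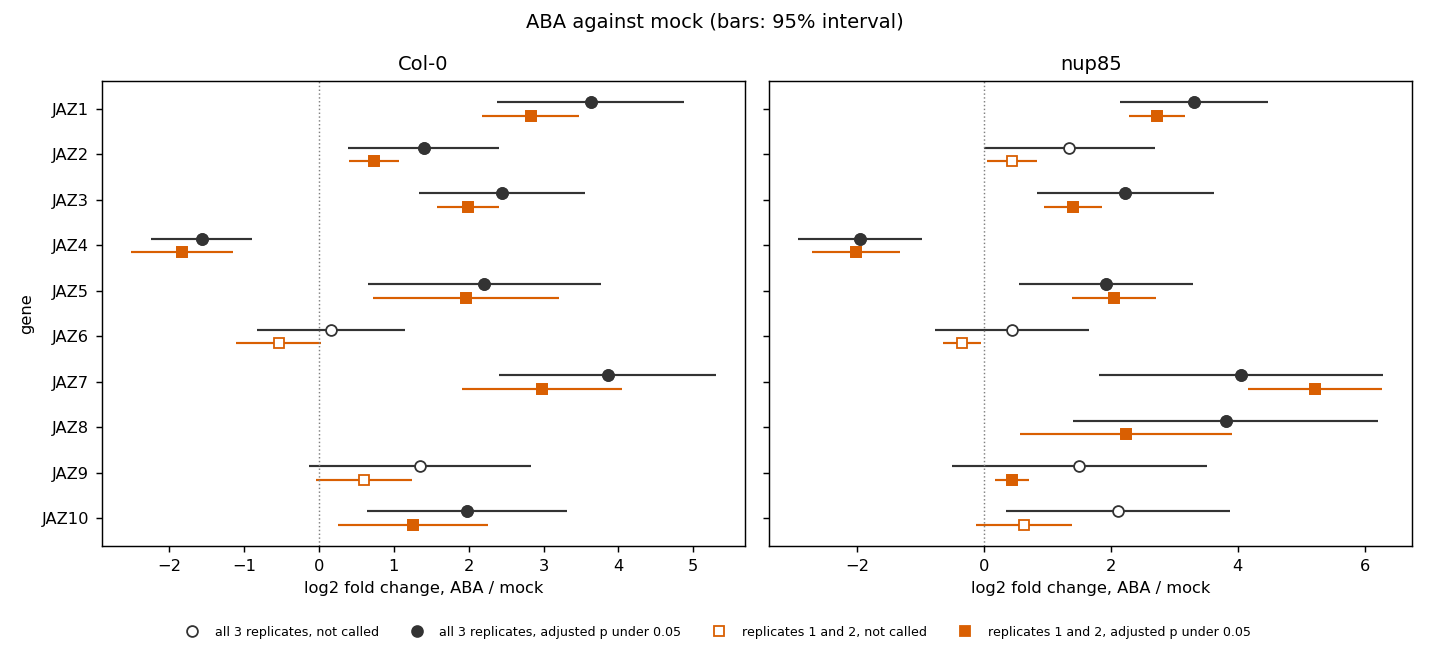
Log2 fold change of each gene between ABA and mock in WT (left) and *nup85* (right), with 95% intervals. Black circles are from all 3 replicates and orange squares from replicates 1 and 2, filled where the adjusted p is under 0.05. *JAZ1*, *JAZ3*, *JAZ4*, *JAZ5* and *JAZ7* are filled in all 4 fits, and *JAZ6* is on opposite sides of 0 with and without replicate 3.

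The promoters of the members were read from the RefSeq annotation of TAIR10.1, as the 250 bases before each annotated gene start, because MYC factors bind G-boxes and the members are known as MYC targets. The G-box CACGTG, which reads the same on both strands, was found in 4 of 10 promoters, against 6.49% of 27443 promoters of protein-coding genes. All 4 are shown, because they are the members that hold the motif. Capitals mark the G-box, and each sequence is given 5′ to 3′ on the strand of its gene.
*JAZ2* (chr1:28150447-28150696, minus strand): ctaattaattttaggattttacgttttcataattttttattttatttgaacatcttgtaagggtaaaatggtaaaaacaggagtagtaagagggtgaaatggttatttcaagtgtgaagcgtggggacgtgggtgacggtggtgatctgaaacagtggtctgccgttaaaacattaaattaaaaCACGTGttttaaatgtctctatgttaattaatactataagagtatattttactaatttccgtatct
*JAZ3* (chr3:6119457-6119706, plus strand): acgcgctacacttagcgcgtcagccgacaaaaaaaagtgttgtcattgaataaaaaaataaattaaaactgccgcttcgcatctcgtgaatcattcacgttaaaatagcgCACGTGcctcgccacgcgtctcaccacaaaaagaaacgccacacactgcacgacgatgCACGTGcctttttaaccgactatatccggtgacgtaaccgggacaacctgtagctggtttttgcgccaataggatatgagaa
*JAZ7* (chr2:14572780-14573029, plus strand): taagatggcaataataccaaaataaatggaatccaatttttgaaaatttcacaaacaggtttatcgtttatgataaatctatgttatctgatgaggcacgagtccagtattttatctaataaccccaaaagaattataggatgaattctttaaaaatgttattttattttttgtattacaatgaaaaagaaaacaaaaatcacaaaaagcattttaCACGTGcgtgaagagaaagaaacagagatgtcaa
*JAZ8* (chr1:10596102-10596351, plus strand): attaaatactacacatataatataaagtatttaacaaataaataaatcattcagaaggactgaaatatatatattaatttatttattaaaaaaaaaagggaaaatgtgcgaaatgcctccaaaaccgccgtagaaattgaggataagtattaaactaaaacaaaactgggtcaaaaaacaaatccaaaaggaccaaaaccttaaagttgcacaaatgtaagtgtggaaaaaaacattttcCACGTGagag
The last base of the motif lay before the gene start by 61 bases in *JAZ2*, 77 and 135 bases in *JAZ3*, 29 bases in *JAZ7* and 5 bases in *JAZ8*. None of these 4 windows overlapped another annotated gene. The ABA-response element, searched on both strands as ACGTGGC and ACGTGTC, which can overlap a G-box, was found in 0 of 10 windows against 6.39% of promoters. The GCC-box GCCGCC of ethylene-response factors was found in 0 of 10 against 1.87%. In windows of 1000 bases, a length chosen after the data had been seen, the G-box was found in 8 of 10 members against 14.8% of promoters, the ABA-response element in 5 of 10 (*JAZ1*, *JAZ2*, *JAZ5*, *JAZ6* and *JAZ9*) against 14%, and the GCC-box in 1 of 10 (*JAZ8*) against 8.44%. A match is a description of the letters and was not tested as a binding site.

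Around the repressors, the jasmonate pathway did not move as a block. Catabolism genes rose most often. Of the 9 tested, 8 rose and 0 fell in each genotype, with a median log2 fold change of 3.77 in WT and 4.21 in *nup85*. The share of all genes called higher was 16.5% in WT and 15.4% in *nup85*. On replicates 1 and 2 the catabolism medians were 2.75 in WT and 2.45 in *nup85*. There 8 of 9 were called higher in WT and 9 of 9 in *nup85*, against 24% and 25.6% of all genes. *JOX3*, one of the oxygenases that hydroxylate jasmonic acid, had 0.211 to 0.748 CPM in WT mock and 10.3 to 83.1 CPM in WT ABA, and rose on the log2 scale by 6.33 (SE 1.06, n = 3 and 3, edgeR adjusted p = 0.00630) in WT and 4.47 (SE 0.77, n = 3 and 3, edgeR adjusted p = 0.00710) in *nup85*. *CYP94B3*, a cytochrome P450 that oxidizes jasmonoyl-isoleucine, rose by 6.06 (SE 0.69, edgeR adjusted p = 0.00204) and 5.73 (SE 0.76, edgeR adjusted p = 0.00307) on the log2 scale. The sulfotransferase gene *ST2A* rose by 4.34 and 4.52 (edgeR adjusted p = 6.78e-04 and 8.44e-04). *JOX4* had 0, 7 and 0 reads in WT mock and 992, 120 and 2827 reads in WT ABA. In *nup85* mock it had 0 reads in all 3 libraries, and after ABA it was at least 112-fold higher, taking a floor of 3 reads in each mock library. The last gene of the list, *JOX1*, was removed by the filter on low counts and went the other way, with 8, 3 and 6 reads in WT mock, 2, 4 and 2 reads in *nup85* mock and 0 reads in all 6 ABA libraries, which allows up to 3 reads in each.

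Of the 14 synthesis genes tested, 5 rose in WT and 3 in *nup85*, and 0 fell in either. Over all genes, 16.5% were called higher and 14.9% lower in WT, and 15.4% and 13.8% in *nup85*. *ACX1*, a peroxisomal acyl-CoA oxidase of the last steps of jasmonate synthesis, rose by 3.29 (SE 0.57, edgeR adjusted p = 0.00724) in WT and 2.66 (SE 0.62, edgeR adjusted p = 0.0188) in *nup85*. *KAT2*, a thiolase of the same steps, rose by 1.60 and 1.47 (edgeR adjusted p = 0.00665 and 0.00590). The allene oxide cyclase gene *AOC3* rose by 1.3 and 2.43 (edgeR adjusted p = 0.0258 and 0.00552), and the lipoxygenase gene *LOX3* rose by 2.40 in WT (edgeR adjusted p = 0.0241) and had 3.16 in *nup85* (edgeR adjusted p = 0.0698). The early genes *LOX2* and *AOS*, chosen after their values were seen, had -0.65 and -0.66 in WT with all 3 replicates. In replicates 1 and 2 they fell by 1.57 and 1.43 (edgeR adjusted p = 0.00273 and 0.00220). There 5 synthesis genes were called higher and 4 lower in WT, where 24% and 23.2% of all genes were.

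On the protein side of the JAZ complex, 3 of 6 genes for the receptor and corepressors rose in WT and 0 of 6 in *nup85*. Of all genes, 16.5% and 15.4% were called higher. *TPL* rose by 1.19 (SE 0.22, edgeR adjusted p = 0.00911), *NINJA* by 0.63 (SE 0.13, edgeR adjusted p = 0.0138) and *TPR1*, a relative of *TPL*, by 0.49 (SE 0.15, edgeR adjusted p = 0.0409) in WT. In *nup85* the same genes had 0.77, 0.35 and 0.33, with adjusted p from 0.111 to 0.205 by edgeR. The difference between genotypes is covered by the test of the interaction, in which 0 genes were called. The receptor gene *COI1*, chosen after its values were seen, had -0.22 (SE 0.23, edgeR adjusted p = 0.507) in WT.

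Of 10 tested genes for transcription factors that JAZ proteins bind, 3 fell in each genotype and 0 rose. Among all genes tested, 14.9% were called lower in WT and 13.8% in *nup85*. *MYC5* had 4.64 to 16.8 CPM in WT mock and 0.0750 to 0.296 CPM in WT ABA, and 14.4 to 18.6 CPM in *nup85* mock and 0.279 to 0.497 CPM in *nup85* ABA. The log2 fold changes of *MYC5* were -5.56 (SE 0.67, n = 3 and 3, edgeR adjusted p = 0.00232) and -5.44 (SE 0.28, n = 3 and 3, edgeR adjusted p = 3.63e-04). *MYC4* fell by 2.25 and 2.14 on the log2 scale (edgeR adjusted p = 0.00478 and 0.00518), and *EGL3*, a regulator of trichomes and anthocyanin, by 2.14 and 1.93 (edgeR adjusted p = 0.00366 and 0.0129). *MYC2*, the central factor of the pathway and chosen after its values were seen, had 0.81 (SE 0.40, edgeR adjusted p = 0.158) and 0.89 (SE 0.51, edgeR adjusted p = 0.228).

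Of the classical output genes of jasmonate signalling, 1 of 8 tested was higher in WT and 0 lower, where 16.5% and 14.9% of all genes were, namely *CORI3*, a cystine lyase gene, by 1.65 (SE 0.41, edgeR adjusted p = 0.0245). In *nup85* 0 of 7 were higher and 1 was lower, where 15.4% and 13.8% of all genes were, the vegetative storage protein gene *VSP2*, with a log2 fold change of -1.09 (SE 0.21, edgeR adjusted p = 0.0104). *VSP2* had 152 to 358 CPM in WT mock and 124 to 193 CPM in WT ABA, and 286 to 360 CPM in *nup85* mock and 141 to 188 CPM in *nup85* ABA. The summed level of the list was 498 to 707 CPM in WT mock and 739, 628 and 1156 CPM in WT ABA, and 646 to 712 CPM in *nup85* mock and 517, 654 and 920 CPM in *nup85* ABA, so replicate 3 was the highest of each ABA group here as well. Of the other *JAZ* genes, *JAZ12* rose by 1.5 (SE 0.22, edgeR adjusted p = 0.00402) and 1.38 (SE 0.31, edgeR adjusted p = 0.0169), from 42.4 to 66.3 CPM in the mock libraries to 110 to 249 CPM after ABA. *JAZ11* was not called, and *JAZ13* was removed by the filter on low counts.

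**Figure D4:**
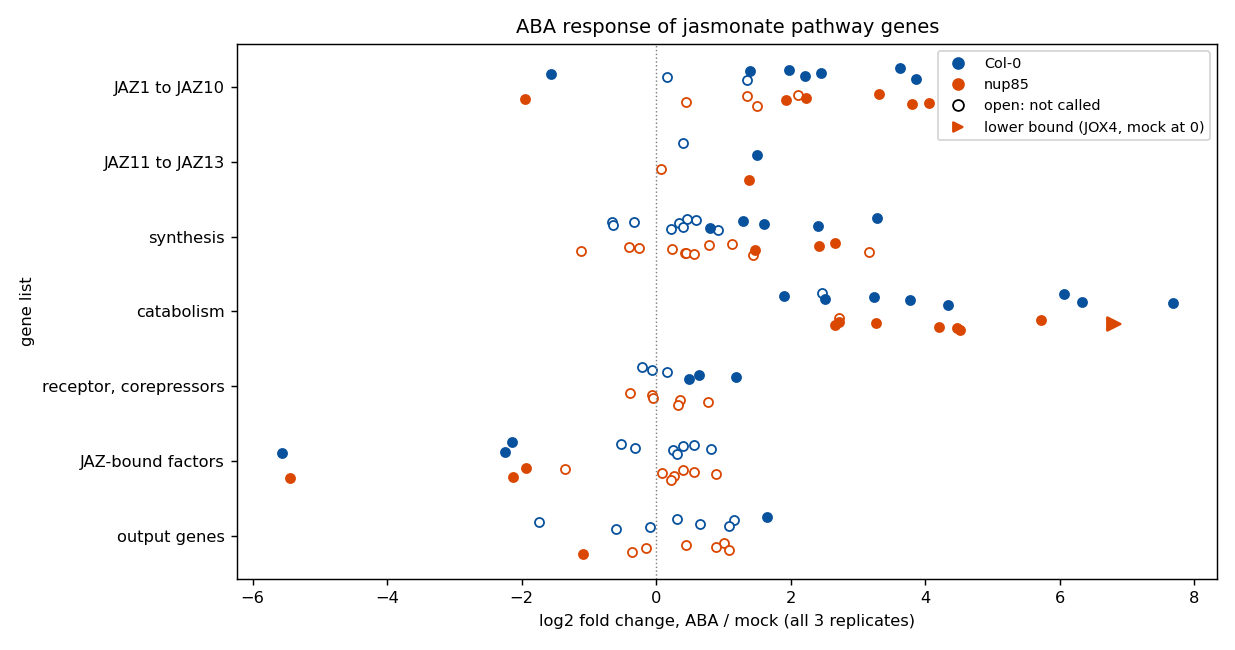
Log2 fold change between ABA and mock of each tested gene in 7 lists, for WT (blue) and *nup85* (orange) from all 3 replicates, filled where the adjusted p is under 0.05. Catabolism genes lie between 1.90 and 7.68 in WT, and the lowest points are *MYC5* at -5.56 and -5.44; the arrowhead is the lower bound for *JOX4* in *nup85*, whose mock libraries had no reads.

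Some of these counts changed without replicate 3. On replicates 1 and 2 in *nup85*, 5 synthesis genes were called higher and 6 lower, and 2 of the 6 receptor and corepressor genes higher. Of the transcription factor genes, 2 were then called higher in each genotype, beside 3 lower in WT and 4 in *nup85*. Over all genes on these replicates, 24% were called higher and 23.2% lower in WT, and 25.6% and 25.9% in *nup85*. With a block on the replicate number, *nup85* gained calls of *CYP94B1* in catabolism (edgeR adjusted p = 0.0416), *CORI3* (edgeR adjusted p = 0.0314) and the ABA marker *RD29B* (edgeR adjusted p = 0.0387), and lost none in these lists. In WT the same block lost calls. It left 4 synthesis, 2 receptor and corepressor, 4 touch and wound and 0 output genes called higher, against 5, 3, 5 and 1 without it. The WT call of *CORI3* was thus lost. Over all genes, the block took the calls from 6299 to 6401 in WT, of which 52.6% and 52.7% were higher. In *nup85* it took them from 5838 to 6097, of which 52.6% and 52.0% were higher.

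Most listed genes of the ABA and touch responses also rose with ABA. Of all genes, 16.5% were called higher in WT and 15.4% in *nup85*. All 4 genes of the ABA check list (*RD29A*, *RD29B*, *RAB18* and *HAI1*) rose in WT and 3 of 4 in *nup85*, and their summed level was 188 to 311 CPM in mock and 4141 to 6969 CPM in ABA libraries. Early genes of touch and wounding rose as well, 5 of 6 in WT and 6 of 6 in *nup85*, and their summed level went from 60.7 to 178 CPM in mock to 743 to 1708 CPM in ABA libraries. *TCH4*, a touch-induced cell wall enzyme gene, had log2 fold changes of 4.84 (edgeR adjusted p = 0.00172) and 5.02 (edgeR adjusted p = 9.44e-04). The touch and wound sum was lowest in replicate 3 of each ABA group (743 and 1321 CPM), where the summed *JAZ* level was highest. *TCH4* (326 and 513 CPM) and *TCH3* were lowest there too. *TCH2* was highest in replicate 3 of WT ABA (39.5 CPM) and lowest in replicate 3 of *nup85* ABA (61.5 CPM). *WRKY40*, *ZAT10* and *ZAT12*, genes of stress-induced transcription factors, were instead highest in replicate 3 of both ABA groups. Mock seedlings were moved to liquid medium too, and the part of touch or wounding in the *JAZ* values was not tested.

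Between genotypes, 0 members were called under mock. Of 19606 genes tested, 0% were called by edgeR, 1010 had an unadjusted p under 0.05, and DESeq2 called 36. All 8 tested members had values above 0 in the libraries labelled *nup85*, from 0.10 (*JAZ10*) to 0.69 (*JAZ9*), with a median of 0.48 against -0.01 over all genes. *JAZ6* had the smallest unadjusted p, with a log2 fold change of 0.54 (SE 0.20, 95% interval 0.06 to 1.01, edgeR adjusted p = 0.937, 0.166 to 1.00 over the alternatives). *JAZ1* had 0.51 (SE 0.25, 95% interval -0.08 to 1.11) and *JAZ9* 0.69 (SE 0.42, 95% interval -0.30 to 1.67). The values of *JAZ5*, *JAZ4*, *JAZ3* and *JAZ2* were 0.53, 0.45, 0.17 and 0.15. *JAZ7* and *JAZ8* were removed by the filter on low counts, and without it they had 0.01 (95% interval -1.51 to 1.52) and -0.50 (95% interval -2.90 to 1.89). The genotypes overlapped for all 10 members, where 6.23% of all genes did not overlap with *nup85* higher and 4.96% with *nup85* lower. With replicates 1 and 2, all 8 values were again above 0 and between 0.06 and 0.54. Fitted there without the filter, *JAZ7* had -2.31 (95% interval -4.71 to 0.09) and *JAZ8* -0.35 (95% interval -3.20 to 2.49). A block on the replicate number called 61 genes (0.311%), and 438 (2.26%) on replicates 1 and 2, none of them a member.

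After ABA, 0 of 10 members were called between genotypes, 0% of 20270 genes passed by edgeR, 995 had an unadjusted p under 0.05, and DESeq2 called 98. *JAZ9* had 0.83 (SE 0.97, 95% interval -1.49 to 3.15) and *JAZ6* 0.82 (SE 0.64, 95% interval -0.70 to 2.35), while the other 8 lay between -0.04 (*JAZ3*) and 0.44 (*JAZ8*). Among these, *JAZ1*, *JAZ5*, *JAZ7* and *JAZ10* had 0.20, 0.25, 0.23 and 0.23, and *JAZ2* and *JAZ4* 0.09 each. A difference of 2-fold in both directions lay inside the interval for 8 of 10 members, all but *JAZ4* and *JAZ6*. All 10 members overlapped between genotypes, against 6.06% and 5.14% of all genes that did not with *nup85* higher and lower.

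After ABA the intervals from replicates 1 and 2 were narrower. *JAZ6* was higher in both libraries labelled *nup85* (49.6 and 47.2 CPM) than in both of WT (40.2 and 26.3 CPM), with a log2 fold change of 0.54 (SE 0.19, 95% interval 0.08 to 1.00, edgeR adjusted p = 0.180). *JAZ3* was lower in both (36.3 and 36.1 CPM against 50.1 and 41.8 CPM), with -0.34 (SE 0.11, 95% interval -0.61 to -0.06, edgeR adjusted p = 0.163). Neither was called, and 5 of 10 members lay above 0. A block on the replicate number over all 3 replicates called 279 genes (1.38%) and no member. It called 4 of the 6 touch and wound genes higher in *nup85* (*TCH2*, *TCH4*, *WRKY40* and *ZAT10*, by 0.69 to 0.92), where 0 were called without the block. With this block *JAZ6* had 0.73 (SE 0.15, edgeR adjusted p = 0.0733). The block on replicates 1 and 2, which called 1735 genes (8.73%), gave *JAZ6* 0.57 (SE 0.13, edgeR adjusted p = 0.0323), the one call of a member between genotypes in any fit run, and the adjusted p of *JAZ6* ranged from 0.0323 to 1.00 over the alternatives.

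**Figure D5:**
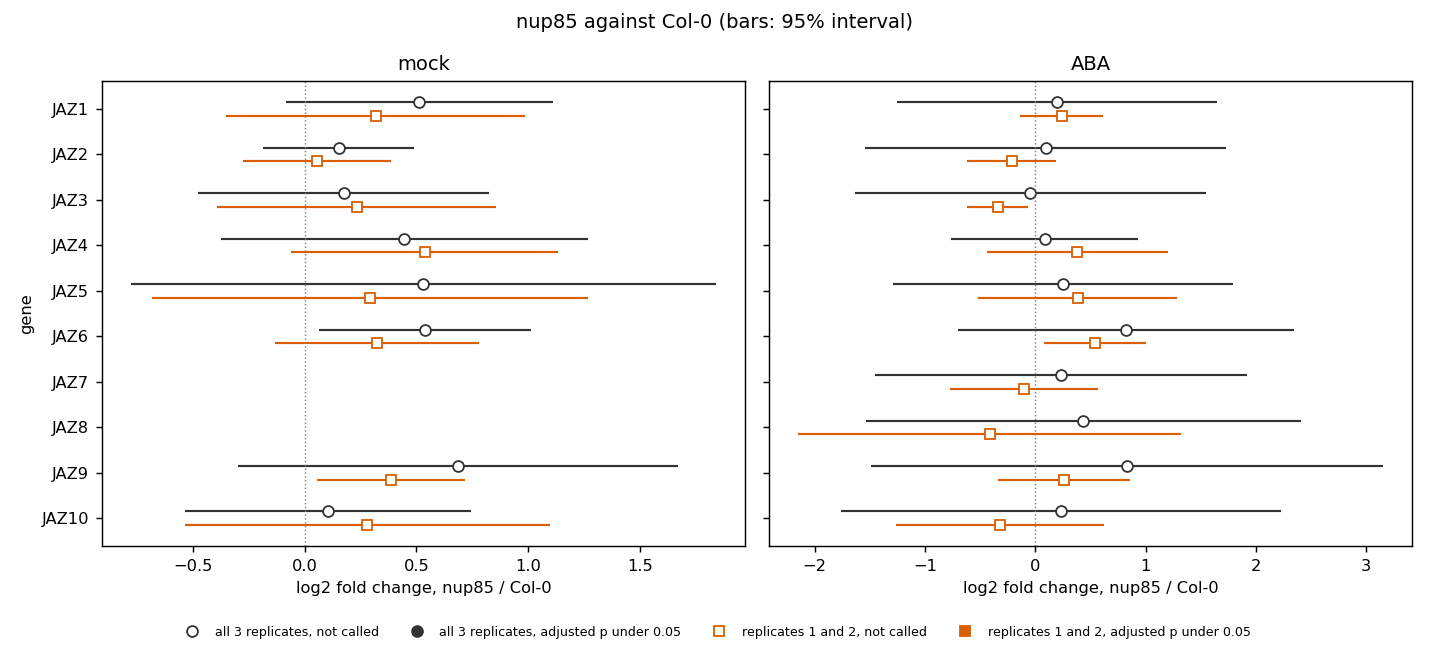
Log2 fold change of each gene between libraries labelled *nup85* and WT, under mock (left) and after ABA (right), with 95% intervals. Black circles are from all 3 replicates and orange squares from replicates 1 and 2, and all symbols are open because no adjusted p was under 0.05. After ABA the intervals from all 3 replicates are the wider ones, reaching from -1.49 to 3.15 for *JAZ9*.

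Whether the ABA response of the *JAZ* genes differed between genotypes was tested as the interaction of genotype and treatment. Of 20574 genes 0% were called by edgeR, 309 had an unadjusted p under 0.05, and DESeq2 called 1. The members ranged from -0.37 (*JAZ4*, SE 0.50, 95% interval -1.47 to 0.74) to 0.96 (*JAZ8*, SE 1.60, 95% interval -2.55 to 4.47), 5 above and 5 below 0. *JAZ6*, *JAZ7*, *JAZ9* and *JAZ10* had 0.30, 0.21, 0.16 and 0.14, and *JAZ2*, *JAZ3* and *JAZ5* -0.05, -0.21 and -0.28. *JAZ1*, the highest member per length after ABA, had -0.31 (SE 0.73, 95% interval -1.91 to 1.3). With replicates 1 and 2, *JAZ7* had 2.27 (SE 0.86, 95% interval 0.34 to 4.21, edgeR adjusted p = 0.485), a value that rests on 1 read in each of the 2 *nup85* mock libraries, and its adjusted p ranged from 0.485 to 1.00 over the alternatives.

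The members differed in how alike their profiles were over the 12 libraries. Likeness was measured as the root mean square distance between log2 CPM profiles centred on their means, and is a description over libraries that share groups and replicate numbers. Within the family, *JAZ2* and *JAZ10* were nearest to each other (0.45), followed by *JAZ3* and *JAZ5* (0.46) and by *JAZ9* with *JAZ2* (0.49). This likeness was not particular to the family. Of 15977 other genes, 205 were nearer to *JAZ2* and 18 nearer to *JAZ10* than these 2 were to each other. For *JAZ3* and *JAZ5* the counts were 98 and 17, and 9 genes were nearer to *JAZ9* than *JAZ2* was. *JAZ10* was nearest to the median profile of the 10 members (0.26) and *JAZ4* farthest from it (1.86). Outside the members, the 5 of 15977 genes nearest to that median were AT5G54170 (0.30), AT4G20860 (0.32), *CAX7* (AT5G17860, 0.32), AT5G17000 (0.32) and AT2G41170 (0.33). For *JAZ8* the nearest of all genes was *CYP94C1* (0.51), a catabolism gene of the lists above, whose log2 fold change was 1.90 in WT (edgeR adjusted p = 0.0279) and 2.72 in *nup85* (edgeR adjusted p = 0.0108). No other member had its nearest gene in these lists.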

How the data were processed

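Per the labels and the study's methods, total RNA was sequenced, reads were checked with FastQC, trimmed to bases 11 to 80, mapped to TAIR10 with TopHat2 and counted on genes with featureCounts, and the authors deposited raw counts for 33602 genes without normalization. The study tested them with DESeq2. Tool versions, strandedness and the treatment of reads that map to several places, which bears on close *JAZ* relatives, are not given in the sources used here.

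Here the deposited counts were fitted with edgeR 4.0.16 (limma 3.58.1, R 4.3.3): TMM normalization, filterByExpr by group, quasi-likelihood tests on the libraries of each comparison (4 groups for the interaction) and Benjamini-Hochberg adjustment over all genes of the fit, at 0.05. The procedure was tested on simulated counts with large changes, the same spread setting for all genes and no replicate effect. The pattern of replicate 3 was not simulated. Fold limits of 4 (ABA) and 1.5 (genotype) follow the study. Levels are TMM CPM, per kb of the union of RefSeq exons where genes are compared. Library totals of 6616931 to 29798437 counts limit *JAZ7* and *JAZ8* most. Intervals are 95%.

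Alternatives were DESeq2 1.42.0, RLE and upper-quartile normalization, no filter on low counts, 1 fit of all groups, replicates 1 and 2 alone, a replicate block and leaving out each library. Same-numbered libraries of the 2 genotypes deviated together (correlations 0.64, 0.59 and 0.81 under mock, 0.72, 0.62 and 0.80 after ABA). Replicates 1 and 2 crossed gave 0.39 and 0.51 under mock, and 0.51 and 0.44 after ABA. For ABA and mock libraries of *nup85* the same numbers gave 0.30, 0.11 and 0.29, and replicates 1 and 2 crossed gave 0.25 and 0.17. On replicates 1 and 2 alone, the same-number correlation was -0.0037 for these *nup85* libraries. Between genotypes it was then 0.25 under mock and 0.34 after ABA. The labels do not state a pairing. For these comparisons, values with the replicate block over all 3 replicates are also given where they change a call of a member or listed gene. In WT the correlations were 0.32, -0.05 and 0.27, and the numbers were not taken to pair the libraries.

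All 10 members are named in every comparison. From each pathway list, up to 4 called genes with the largest changes are named, and others are marked as chosen after their values were seen. The members and lists were chosen with earlier results of these data known. *JAZ* proteins were not analysed here. Promoter sequences are printed for 4 members only.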

Additional observations from a re-analysis of the deposited data

How the results depend on the processing

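Of the ABA results, the direction of *JAZ1* to *JAZ5*, *JAZ7* and *JAZ10* held under every alternative run in both genotypes, as did that of *JAZ8* in *nup85* and *JAZ9* in WT. The calls of *JAZ1*, *JAZ3*, *JAZ4* and *JAZ7* held throughout in WT, and that of *JAZ1* in *nup85*. Depth limits *JAZ7* and *JAZ8*, with 0 to 17 reads in each *nup85* mock library. Upper-quartile normalization moved the median of all genes in WT to -0.15 (TMM -0.01) and the share of calls that were higher from 52.6% to 41.2%, and *JAZ2* then missed the threshold in WT (1.25, adjusted p = 0.0544 from edgeR). Except where named, the cause of a change was not tested. Without division by length, 8, 6, 8 and 4 of 10 members kept their place in the order of levels in WT mock, WT ABA, *nup85* mock and *nup85* ABA.

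ABA calls in WT numbered 6299, and in *nup85* 5838. The 4-fold limit gave 1502 and 1351, and on replicates 1 and 2 (chosen after seeing the data) 1663 and 1605; for members in WT it gave 4 and 2. In *nup85*, replicates 1 and 2 gave 10269 genes without and 10637 with the replicate block. Leaving out single libraries gave 3484 to 6848 genes and 4 to 8 members in WT (8 without ABA replicate 2, where *JAZ8* passed the filter on low counts and was called), and 3182 to 7718 genes and 1 to 7 members in *nup85*. The block on all 3 replicates changed no call of a member in *nup85* or between genotypes, and ended the WT call of *JAZ2* (adjusted p = 0.0510 from edgeR, 0.00357 to 0.121 over the alternatives).

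Between genotypes under mock, 0 calls became 3 on replicates 1 and 2 (3 with the 1.5-fold limit), 61 with the block, 438 with the block on replicates 1 and 2, 36 by DESeq2 and 193 by DESeq2 on replicates 1 and 2. After ABA, 0 became 624, 588 with the limit, 279, 1735, 98 and 1066 in the same order, and 3 with all groups in 1 fit; the block on replicates 1 and 2 called 1 member, *JAZ6*. For the interaction, 0 became 2 on replicates 1 and 2, 1 by DESeq2 and 68 by DESeq2 on replicates 1 and 2. Leaving out single libraries gave 0 to 0 calls in these 3 comparisons.

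Reversed values on replicates 1 and 2 are given without block, with block and by DESeq2. For *JAZ6* and ABA they were -0.54, -0.56 and -0.55 in WT and -0.35, -0.34 and -0.35 in *nup85*. Between genotypes after ABA they were -0.21, -0.23 and -0.21 for *JAZ2* (block on all 3 replicates -0.045), -0.10, -0.052 and -0.082 for *JAZ7*, -0.41, -0.18 and -0.26 for *JAZ8*, and -0.32, -0.24 and -0.29 for *JAZ10*. In the interaction they were 0.10, 0.15 and 0.11 for *JAZ5*, -0.13, -0.12 and -0.15 for *JAZ9*, -0.60, -0.53 and -0.59 for *JAZ10* (block on all 3 replicates -0.039), and -0.040 without block for *JAZ8*.

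Leaving out single libraries reversed further values, none of them called with all 3 replicates. For ABA, *JAZ6* ranged from -0.44 to 0.47 in WT and from -0.46 to 0.76 in *nup85*, and *JAZ9* from -0.13 to 2.08 in *nup85*. Between genotypes under mock, *JAZ5* ranged from -0.22 to 1.05 and *JAZ10* from -0.14 to 0.24. After ABA, the ranges were -0.48 to 0.92 (*JAZ1*), -0.89 to 0.78 (*JAZ2*), -1.0 to 0.63 (*JAZ3*), -0.27 to 0.30 (*JAZ4*), -0.35 to 1.03 (*JAZ5*), -0.053 to 1.43 (*JAZ6*), -0.77 to 0.93 (*JAZ7*), -0.64 to 0.79 (*JAZ8*), -0.77 to 1.87 (*JAZ9*) and -1.06 to 1.01 (*JAZ10*). In the interaction, they were -1.01 to 0.43 (*JAZ1*), -1.06 to 0.65 (*JAZ2*), -1.20 to 0.47 (*JAZ3*), -0.90 to 0.52 (*JAZ5*), -0.61 to 0.91 (*JAZ6*), -0.83 to 2.43 (*JAZ7*), -0.14 to 2.59 (*JAZ8*), -1.48 to 1.21 (*JAZ9*) and -1.18 to 0.93 (*JAZ10*).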
